A study of Homo sapiens with 6 samples.

Results

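The library siRIPK2_2 is 1 of 4 RNA-seq libraries made from U118 cells given siRNA against RIPK2, and its gene expression was set against the other 5 libraries of the same experiment. U118 is an established human malignant glioma line, described in the labels as astroblastoma cells, and all libraries are labelled day 2. Beside it stand 3 further RIPK2 knockdowns (siRIPK2_1, siRIPK2_3 and siRIPK2_4), 1 library from wild-type U118 (WT) and 1 from cultures that received control siRNA (siNC). The labels name no further allele or agent, and what sets the numbered knockdowns apart (the siRNA, the culture or the transfection) is left unstated by them. Levels are CPM (a gene's counts relative to its library's total) scaled with edgeR's TMM factors, and a gene was considered where its mean over the 6 libraries was at least 5 CPM, which 10673 of 20263 listed genes reached. Of these, 3687 genes lay in siRIPK2_2 outside the range of the other 5 libraries, 1601 above it (15%) and 2086 below it (19.5%). Of 122 genes of mitosis and DNA replication 88 were below that range and none above, while 16 of 37 genes of the integrated stress response and 13 of 33 interferon-stimulated genes were above it. Since siRIPK2_2 is a single library, its values carry no SD, its difference from the other libraries was not tested, and every difference is between libraries, not between conditions.

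RIPK2 encodes a kinase that passes signals from the intracellular peptidoglycan sensors NOD1 and NOD2 to NF-kB and MAP kinases, and through them to inflammatory genes. Dividing cells switch on the genes of DNA replication and then those of the mitotic spindle in waves, the first through E2F factors and the later one through B-MYB and FOXM1. Kinetochore proteins such as NUF2 attach chromosomes to spindle microtubules, and the spindle checkpoint holds cells until all are attached. When amino acids run short or the endoplasmic reticulum is loaded with unfolded protein, the integrated stress response raises a separate set of genes through ATF4.

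The target itself lay inside the range of the other libraries. RIPK2 was at 11.8 CPM in siRIPK2_2 against 56.8 in WT, 43.4 in siNC and 3.86, 6.29 and 4.32 in the other siRIPK2 libraries. Among the 4 knockdown libraries siRIPK2_2 held the highest residual level, still below both controls, and whether that level has a part in any value below was not tested. Here and below, the other siRIPK2 libraries are given in the order siRIPK2_1, siRIPK2_3 and siRIPK2_4, also where a sentence closes on their 3 values without naming them. Total counts ran from 33540619 to 45309423 per library, with 39439406 in siRIPK2_2, and between 13390 and 13823 genes had at least 10 counts, the most in siRIPK2_2. Mitochondrially encoded transcripts took 4.10% of counts in siRIPK2_2, the lowest of the 6, against 4.12% to 4.71% in the others. The labels give no batch. Of 19 astrocyte and glioma markers, 10 had a mean of at least 5 CPM, while GFAP, a defining astrocyte filament gene, lay between 0.533 and 1.09 CPM in all 6 libraries and AQP4 had no count in any. In RNA from bulk cultures, fewer cells of a kind and less RNA per cell cannot be told apart.

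The distance from siRIPK2_2 to the nearest of the other 5 libraries, called the gap here, is on the log2(CPM + 1) scale, and so is every count of genes past 1.5-fold, while a fold printed for a single gene is the ratio of its CPM values. Above the range the median gap was 0.13 and below it 0.18. A gap of at least 1.5-fold held for 61 genes above the range (0.572% of those considered) and 205 below it (1.92%), and 14 and 48 of these reached 2-fold. In 783 of the 1601 genes above and 1165 of the 2086 below, the exact 95% Poisson interval of siRIPK2_2 did not touch that of the nearest library. All 61 and 205 genes past 1.5-fold were among these, although such intervals cover counting error only. A gap wider than the whole range of the other libraries was present in 82 genes above and 257 below.

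Other libraries stood apart as well. The number of genes outside the range of the remaining 5 libraries was 1734 for WT, 3464 for siNC, 4694 for siRIPK2_1, 4264 for siRIPK2_3 and 3501 for siRIPK2_4, so siRIPK2_2 with 3687 came after siRIPK2_1 and siRIPK2_3. Past 1.5-fold the counts were 42 for WT, 339 for siNC, 551 for siRIPK2_1, 266 for siRIPK2_2, 396 for siRIPK2_3 and 324 for siRIPK2_4. Every siRNA library, siNC included, thus had more genes outside the range than WT, and siRIPK2_2 had the fewest past 1.5-fold among the 5 siRNA libraries. Without TMM factors, that is with CPM from total counts, 20.81% of genes were above the range and 14.58% below, so the share of outside genes that were above went from 43.42% to 58.81%. Over all genes the median difference of siRIPK2_2 from the median of the other 5 libraries was -0.03 on the log2 scale with TMM and 0.04 with total counts. The count of 61 genes became 101 without WT, 99 without siNC and 106 without siRIPK2_1.

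At the thresholds, ANAPC10 had a mean of 5.01 CPM and entered, while LANCL3 at 5.00 CPM did not. The smallest gap counted as 1.5-fold was 0.587 for ACKR3 above and 0.585 for VIM below, and the largest not counted was 0.582 for HSPB7 above and 0.584 for CCNQ below.

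**Figure D1:**
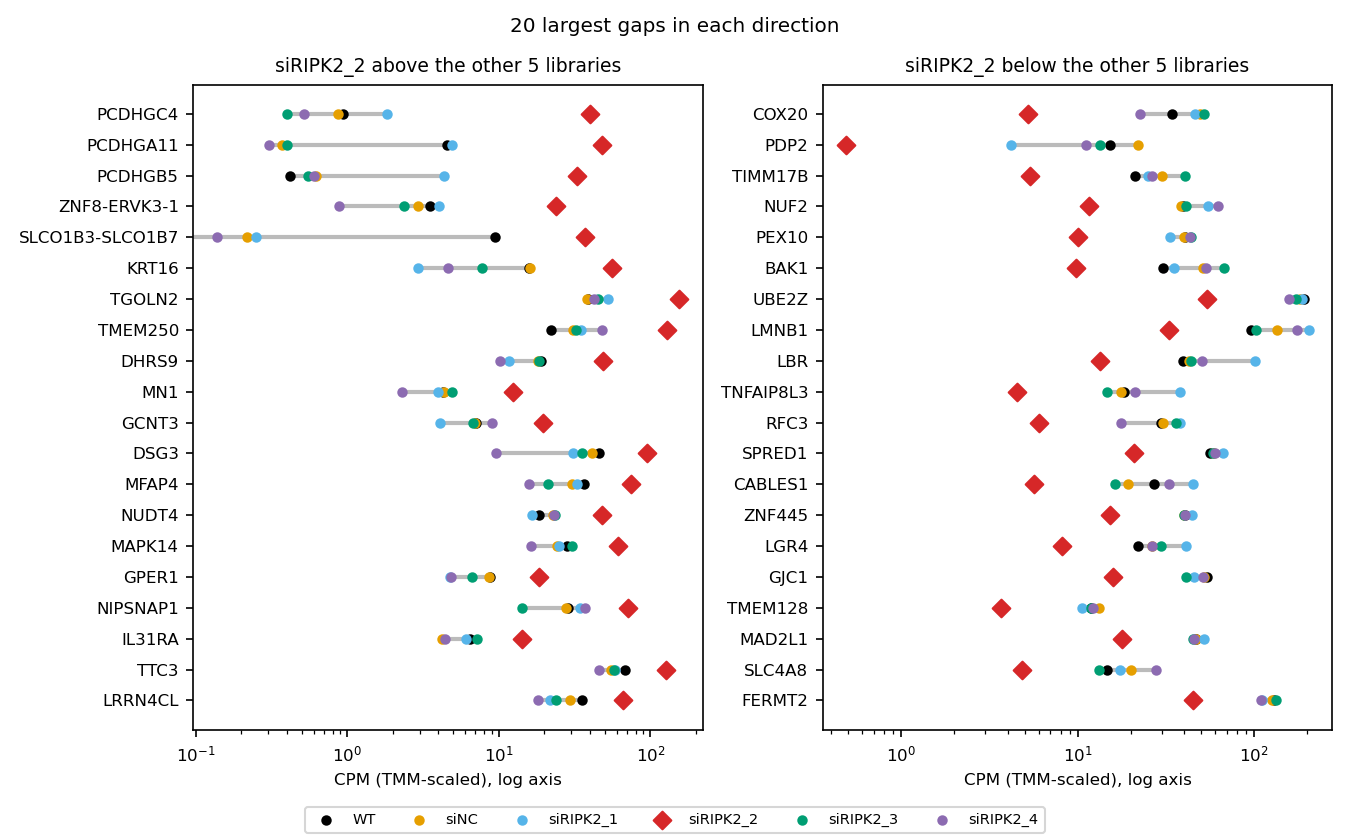
Level of the 20 genes with the largest gap above (left) and below (right) the other 5 libraries, in TMM-scaled CPM on a log axis. Each row is a gene, the red diamond is siRIPK2_2, circles are the other 5 libraries and the grey line spans their range. SLCO1B3-SLCO1B7 had no count in siRIPK2_3, so that circle lies off the axis, and every diamond stands clear of its grey line.

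Most cell cycle genes were lower in siRIPK2_2 than in any other library. Of 81 genes on 3 mitosis lists (kinetochore and checkpoint, mitotic kinases and cyclins, spindle motors and cytokinesis), 57 (70.4%) were below the range, against 19.5% of all genes considered. None of the 81 was above the range, 20 were at least 1.5-fold below it, and the median difference from the median of the other 5 libraries was -0.73 on the log2 scale. In 52 of the 57 the counting intervals of siRIPK2_2 and of the nearest library did not touch. Together with 41 DNA replication genes, 88 of 122 (72.1%) were below and none above, and 120 of the 122 were under the median of the others.

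The promoters of 5 of these mitosis genes are shown because cell cycle genes of this wave are known to carry a CHR element (core TTTGAA), bound by the DREAM and B-MYB complexes, and CCAAT boxes, bound by NF-Y. They are the 5 members below the range with the largest gaps among those with both motifs in a stretch of 110 bases free of GENCODE 29 exons. Sequences are from RefSeq, build GRCh38, on the strand of the gene, and capitals mark TTTGAA or CCAAT or their reverse complements TTCAAA and ATTGG, which overlap once in MKI67. The stretches are chr12:53268189-53268298 (plus) for ESPL1, chr1:43358845-43358954 (plus) for CDC20, chr16:2429284-2429393 (plus) for CCNF, chr10:128126424-128126533 (minus) for MKI67 and chr17:40417951-40418060 (minus) for TOP2A.
ESPL1: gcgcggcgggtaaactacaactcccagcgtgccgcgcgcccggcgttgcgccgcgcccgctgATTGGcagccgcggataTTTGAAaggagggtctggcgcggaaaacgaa
CDC20: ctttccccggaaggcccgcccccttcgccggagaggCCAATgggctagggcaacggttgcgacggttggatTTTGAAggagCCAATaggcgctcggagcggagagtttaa
CCNF: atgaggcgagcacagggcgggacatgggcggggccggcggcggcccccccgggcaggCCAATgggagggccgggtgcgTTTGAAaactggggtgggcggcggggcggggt
MKI67: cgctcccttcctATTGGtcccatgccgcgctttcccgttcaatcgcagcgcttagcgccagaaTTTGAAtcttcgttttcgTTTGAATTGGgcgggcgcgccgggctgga
TOP2A: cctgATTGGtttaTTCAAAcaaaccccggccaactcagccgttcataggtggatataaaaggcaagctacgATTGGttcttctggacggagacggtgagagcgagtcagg
ESPL1, which encodes separase, the protease that releases sister chromatids, was at 33.9 CPM in siRIPK2_2 against 68.3 in WT, 96.03 in siNC and 122, 79.4 and 98.7 in the other siRIPK2 libraries. The cyclin gene CCNF was at 42.03 CPM in siRIPK2_2 against 64.7 in WT, 70.4 in siNC and 114, 81.96 and 119.6 in the other siRIPK2 libraries. MKI67, the gene of the proliferation antigen Ki-67, was at 189 CPM against 342 (WT), 264 (siNC) and 600.1, 261 and 492. TOP2A, which encodes the topoisomerase of mitotic chromosomes, was at 128 CPM against 281 (WT), 205 (siNC) and 161, 288 and 302. In all 4 genes siRIPK2_2 was the lowest of the 6 libraries, with siRIPK2_3 next in MKI67 and siRIPK2_1 next in TOP2A.

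RefSeq promoter windows, from 250 bases before to 50 bases after the annotated start, were found for 68 of the 81 mitosis genes. TTTGAA on either strand was in 43 of the 68 (63.2%) and CCAAT in 48 (70.6%), against 15.4% and 35.7% of all 27305 windows of the same length. Among the 8788 windows of genes considered, the shares were 9.59% and 37.3%. The first base of a TTTGAA match lay at a median of 26 bases before the start and that of a CCAAT match at 75. In 37 windows of DNA replication genes TTTGAA was present in 1 (2.7%) and CCAAT in 21 (56.8%). The E2F motif TTTCGCGC was in 6 (16.2%), against 0.546% of all windows and 1.09% of those of genes considered. Read the other way, 19.4% of all 8788 genes with a window were below the range. Among the 3281 with CCAAT the share was about the same, at 19.8%. It was 24.8% of the 843 that hold TTTGAA, 28.9% of the 357 with both and 33.3% of the 96 with TTTCGCGC. These groups include the mitosis and replication genes above, with 43 mitosis genes among the 843 and 6 replication genes among the 96. The shares therefore partly restate the values of those genes, and shares without them were not computed. A match describes these letters only, and the motifs had no readout of binding here.

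**Figure D2:**
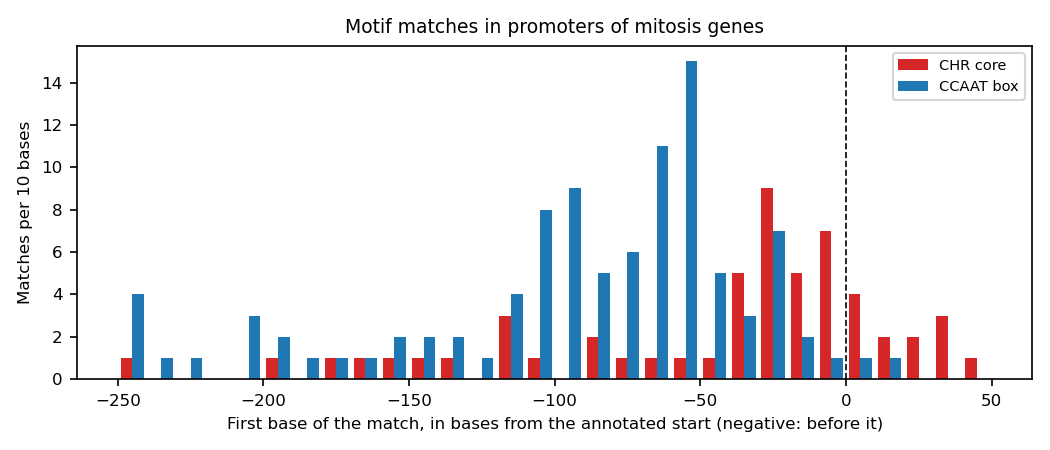
Position of TTTGAA (CHR core, red) and CCAAT (blue) matches on either strand in the RefSeq promoter windows of 68 mitosis genes. The horizontal axis is the first base of a match in bases from the annotated start (dashed line), the vertical axis is the number of matches per 10 bases, and most of the 55 TTTGAA matches lie closer to the start than the 99 CCAAT matches.

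In the kinetochore and spindle checkpoint list, 15 of 24 genes were below the range and 5 by at least 1.5-fold, with a median difference of -0.63. NUF2 (chromosome 1, 163266576 to 163355764, plus strand, GRCh38), a subunit of the NDC80 complex that binds microtubules, was at 11.5 CPM in siRIPK2_2 against 39.8 in WT, 38.4 in siNC and 55.2, 41.4 and 62.98 in the other siRIPK2 libraries. That is 3.33-fold under the nearest library, siNC, and 27.8% of the median of the other 5, whose levels did not overlap with siRIPK2_2. MAD2L1, the checkpoint protein that restrains the anaphase-promoting complex, was at 17.9 CPM against 47.3 (WT), 47.3 (siNC) and 52.1, 45.3 and 45.9. Its other 5 libraries stood within a narrow band, and siRIPK2_2 lay 2.53-fold under the lowest of them.

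Further kinetochore members were closer to the rest. SPC25, which encodes another subunit of the NDC80 complex, was at 7.95 CPM in siRIPK2_2 against 17.4 in WT, 14.02 in siNC and 20.3, 14.3 and 19.1 in the other siRIPK2 libraries. SKA3, of the complex that tracks microtubule ends, was at 11.3 CPM against 20.7 (WT), 20.03 (siNC) and 27.1, 20.5 and 21.97. CENPA, the histone variant of the centromere, was at 12.6 CPM in siRIPK2_2 against 22.3 in WT, 19.9 in siNC and 27.4, 21.4 and 34.9 in the other siRIPK2 libraries, but its exons overlap SLC35F6 and reads of the pair may have been shared. All 3 were lowest in siRIPK2_2, and siNC was the next lowest library in each.

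Mitotic kinases, cyclins and subunits or regulators of the anaphase-promoting complex (APC/C) gave the highest share of the 4 lists, with 21 of 25 genes below the range, 11 by at least 1.5-fold and a median difference of -0.91. All 21 differed from the nearest library by more than the counting intervals. FBXO5, which encodes EMI1, an inhibitor of the APC/C, was at 16.2 CPM in siRIPK2_2 against 41.7 in WT, 40.6 in siNC and 65.3, 41.2 and 47.5 in the other siRIPK2 libraries. FOXM1, the transcription factor of the late cell cycle genes, was at 66.2 CPM against 148 (WT), 301 (siNC) and 159, 138 and 176, where siNC was the highest. CCNA2, the gene of cyclin A, was at 41.1 CPM in siRIPK2_2 against 85.3 in WT, 105 in siNC and 136, 107 and 159 in the other siRIPK2 libraries. FOXM1 and CCNA2 overlap exons of ITFG2 and EXOSC9. CDC20, the activator of the APC/C, was at 218 CPM in siRIPK2_2 against 424 in WT, 527 in siNC and 495, 451 and 714 in the other siRIPK2 libraries, so that siRIPK2_2 held 43.9% of the median of the others while siRIPK2_4 stood at the top.

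Of 32 genes for spindle motors, the midzone and cytokinesis, 21 were below the range and 4 by at least 1.5-fold, with a median difference of -0.72. KIF23, a motor of the central spindle, was at 56.4 CPM in siRIPK2_2 against 122 in WT, 111 in siNC and 113, 112 and 169 in the other siRIPK2 libraries. KIF18B, a motor that shortens astral microtubules, was at 60.2 CPM against 102 (WT), 133 (siNC) and 175, 120.3 and 150.3. NUSAP1, which bundles spindle microtubules, was at 31.5 CPM in siRIPK2_2 against 84.1 in WT, 50.2 in siNC and 116, 63.5 and 114 in the other siRIPK2 libraries, with siNC second lowest. The order of the other libraries thus varied from gene to gene. KIF2C, a motor that takes microtubules apart, was at 108 CPM against 169.7 (WT), 199 (siNC) and 236, 167 and 287. TPX2, the activator of Aurora A on the spindle, was at 340.4 CPM against 575 (WT), 543 (siNC) and 659, 508 and 885. In these genes siRIPK2_4 or siRIPK2_1 was the highest library and siRIPK2_2 the lowest.

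Genes of DNA replication and S phase were below the range in 31 of 41 cases, 7 of them by at least 1.5-fold, with a median difference of -0.53. RFC3, a subunit of the clamp loader, was at 6.01 CPM in siRIPK2_2 against 29.7 in WT, 30.7 in siNC and 38.1, 36.1 and 17.7 in the other siRIPK2 libraries. Its gap to the nearest library, siRIPK2_4, was 2.95-fold. RRM2, the small subunit of ribonucleotide reductase, was at 75.5 CPM against 181 (WT), 209 (siNC) and 341, 205 and 195. TYMS, thymidylate synthase, was at 72.2 CPM in siRIPK2_2 against 178 in WT, 168 in siNC and 193, 158 and 153 in the other siRIPK2 libraries, with an overlap with ENOSF1. In both, siRIPK2_1 was the highest library. UHRF1, which maintains DNA methylation, was at 142 CPM against 260.5 (WT), 350.4 (siNC) and 390.3, 361 and 246. POLA2, of the primase complex, was at 44.1 CPM against 91.2 (WT), 77.2 (siNC) and 89.4, 77.2 and 111. RRM2, TYMS, UHRF1 and POLA2 were thus lower in siRIPK2_2 than in any other library, with no overlap.

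**Figure D3:**
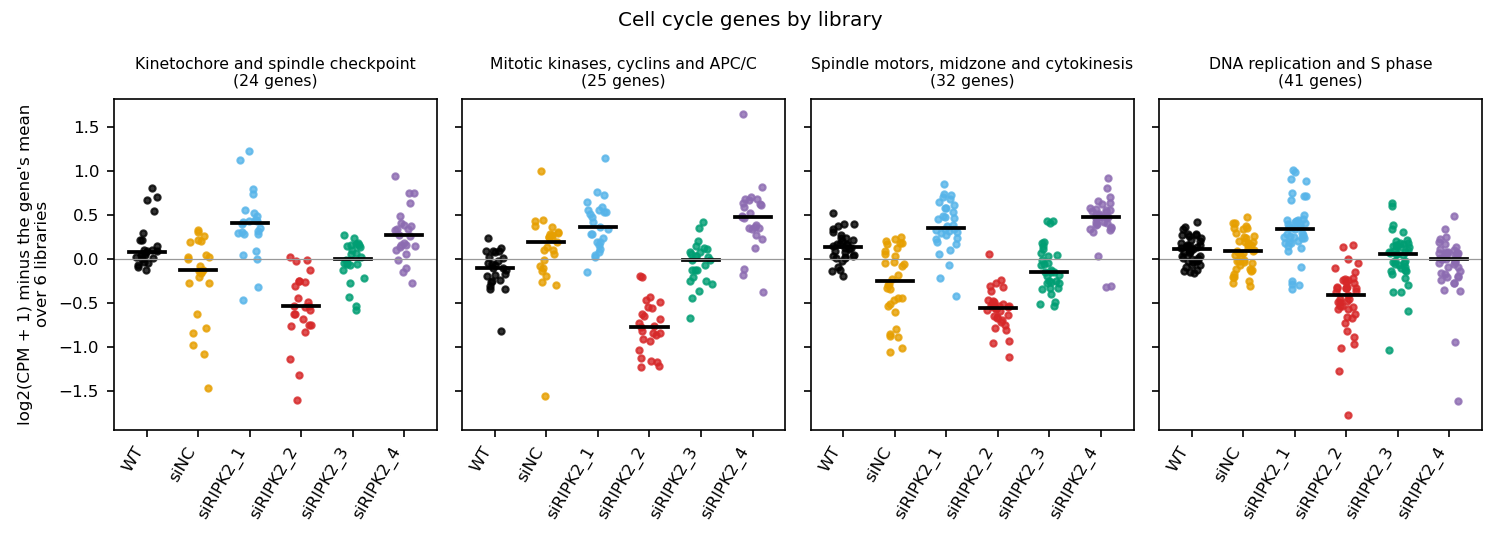
Each gene's log2(CPM + 1) minus its mean over the 6 libraries, for the 4 lists named above the panels. Points are genes, spread sideways at random within a library, and black lines are the list medians, lowest in siRIPK2_2 in each panel, at -0.54, -0.77, -0.56 and -0.41.

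The other knockdown libraries did not share this position. The median of the centred log2 values of the kinetochore list was 0.08 in WT, -0.13 in siNC, 0.41 in siRIPK2_1, -0.54 in siRIPK2_2, 0.00 in siRIPK2_3 and 0.27 in siRIPK2_4. For mitotic kinases and cyclins it was -0.10 in WT, 0.19 in siNC, 0.37 in siRIPK2_1, -0.77 in siRIPK2_2, -0.01 in siRIPK2_3 and 0.48 in siRIPK2_4. The knockdowns therefore lay on both sides of the controls, with siRIPK2_1 and siRIPK2_4 above them and siRIPK2_2 under them. In DNA replication siRIPK2_1 was the highest library in 29 of 41 genes, and siRIPK2_2 was the highest in none. Over all genes considered, siRIPK2_1 was the highest in 22.1% and siRIPK2_2 in 15%. Against the 3 other knockdowns alone, 21 of 24 kinetochore genes, 23 of 25 kinases and cyclins, 27 of 32 spindle genes and 33 of 41 replication genes were lower in siRIPK2_2. Against WT and siNC alone the counts were 16, 22, 23 and 36 in the same order. With CPM from total counts, 14, 21, 18 and 25 genes of these lists were below all 5 libraries. Of all genes considered, 28.14% were below the other knockdowns, 37.65% below both controls and 14.58% below all 5 with total counts.

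Genes further up the cell cycle were less uniform. On the list of G1 cyclins, E2F and RB family members, 9 of 21 (42.9%) were below the range and 2 (9.52%) above. The shares over all genes were 19.5% and 15%, and the median difference of the list was -0.25. E2F3, an activator of S phase genes, was at 9.02 CPM in siRIPK2_2 against 16.7 in WT, 20.1 in siNC and 17.2, 27.02 and 17.5 in the other siRIPK2 libraries. CCNE2, the gene of a cyclin E that overlaps INTS8, was at 9.91 CPM against 28.8 (WT), 16.7 (siNC) and 37.8, 26.3 and 28.5. E2F2 was at 14.1 CPM against 23.2 (WT), 35.3 (siNC) and 56.9, 29.5 and 23.7. All 3 were at least 1.5-fold under the nearest library. CDK inhibitors and p53 targets showed no such shift, with 2 of 22 members (9.09%) above, 1 (4.55%) below and a median difference of 0.01. CDKN1A, the p21 inhibitor, was at 79.5 CPM in siRIPK2_2 against 58.4 in WT, 114 in siNC and 60.02, 75.1 and 59.3 in the other siRIPK2 libraries, inside the range. GADD45B, a stress-induced gene, was at 15.8 CPM against 22.98 (WT), 44.5 (siNC) and 32.995, 48.2 and 19.99 and was the member below. Only 4 of 42 replication-dependent histone genes had a mean of at least 5 CPM in these libraries, and all 4 lay inside the range.

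Among genes of the nuclear envelope that stood out by the size of the gap, LMNB1, the gene of lamin B1, was at 32.8 CPM in siRIPK2_2 against 96.3 in WT, 135 in siNC and 205, 102 and 175 in the other siRIPK2 libraries, 2.94-fold under WT, the nearest library. LBR, the lamin B receptor, was at 13.4 CPM against 39.9 (WT), 42.8 (siNC) and 102, 43.8 and 50.6. In both genes siRIPK2_1 held the highest level and siRIPK2_2 the lowest.

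**Figure D4:**
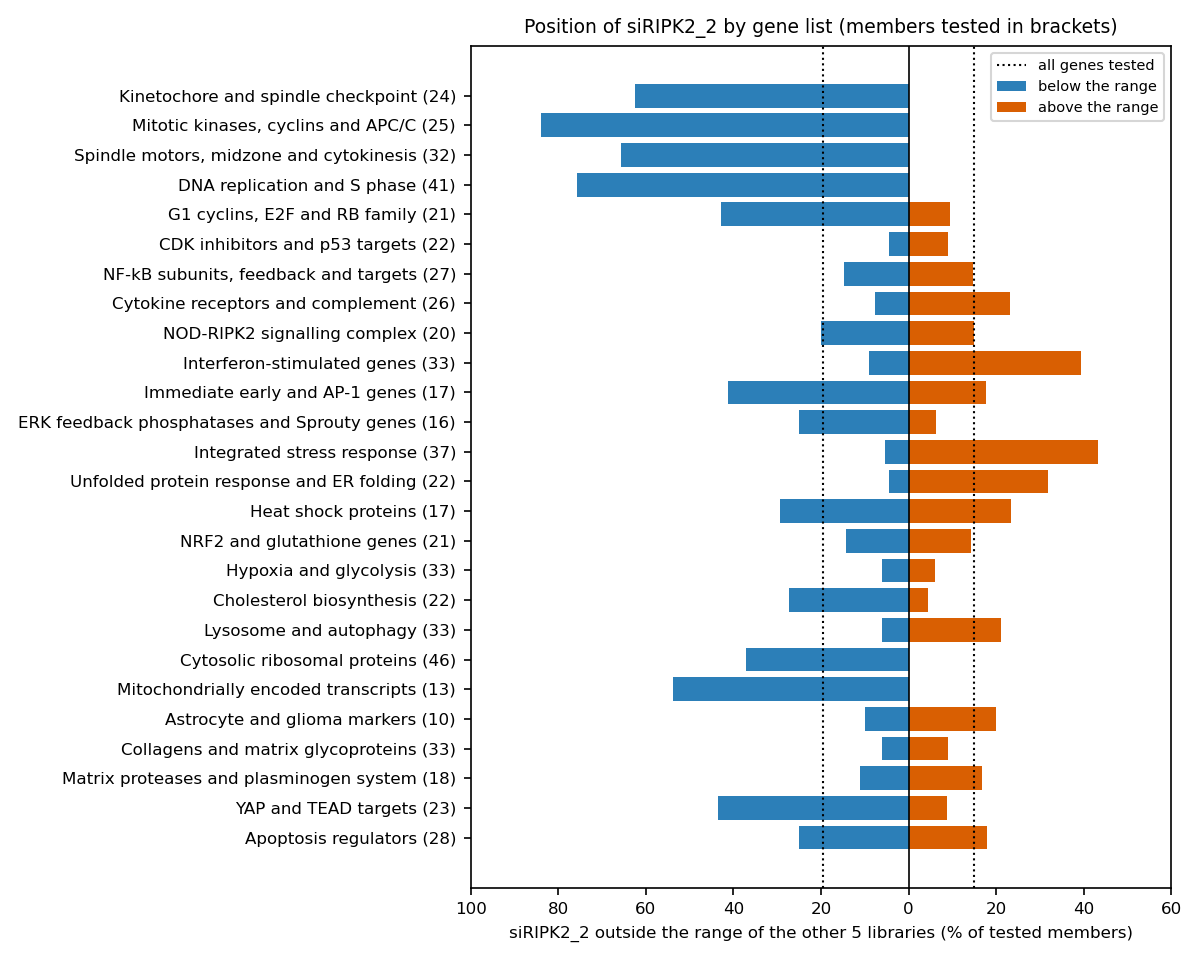
Share of the members of each list that lay below (blue, to the left) or above (orange, to the right) the range of the other 5 libraries in siRIPK2_2, for lists with at least 10 members considered (number in brackets). Dotted lines give the shares over all genes, 19.5% and 15%, and the 4 cell cycle lists at the top reach furthest to the left.

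The inflammatory lists showed a small and uneven shift. Their median differences were all positive, from 0.06 to 0.38, but those of the NF-kB and NOD lists changed sign under other settings. More members lay above the range than below among interferon-stimulated genes and among cytokine receptors and complement, while the NF-kB, NOD and chemokine lists were near balance. Over 5 lists with 115 genes, 28 (24.3%) were above the range and 15 (13%) below, against 15% and 19.5% of all genes, and the median difference was 0.15. Of the 115, 3 were above by at least 1.5-fold and none was below by that much, against 0.572% and 1.92% of all genes. The 3 were MAPK14, IL6R and RSAD2.

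Within the pathway of RIPK2 itself, 3 of 20 genes (15%) were above and 4 (20%) below, near the 15% and 19.5% of all genes. The median difference was 0.08. MAPK14 (chromosome 6, 36027677 to 36111236, plus strand, GRCh38), which encodes p38 alpha, a MAP kinase downstream of NOD signalling, was at 61.6 CPM in siRIPK2_2 against 28.3 in WT, 24.4 in siNC and 25.005, 30.4 and 16.2 in the other siRIPK2 libraries. It was 2.03-fold above the nearest library, siRIPK2_3, and 2.46 times the median of the other 5. XIAP, the ubiquitin ligase that modifies RIPK2, was at 52.8 CPM against 48.2 (WT), 37.3 (siNC) and 39.95, 30.02 and 41.4. TAB1, an adaptor of the kinase TAK1, was at 43.6 CPM in siRIPK2_2 against 71.6 in WT, 65.5 in siNC and 85.1, 88.7 and 81.6 in the other siRIPK2 libraries and lay below the range. XIAP was thus highest and TAB1 lowest of the 6. PELI3, a ubiquitin ligase gene that overlaps MRPL11, was at 9.28 CPM against 16.3 (WT), 25.04 (siNC) and 13.8, 15.02 and 29.98. RNF31, the catalytic subunit of the linear ubiquitin ligase, was at 32.4 CPM against 39.96 (WT), 36.9 (siNC) and 35.2, 36.3 and 43.6. RNF31 overlaps PSME2, and its margin was within counting error. The median of this list changed sign without siRIPK2_1 (-0.02) or siRIPK2_4 (-0.0018).

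NF-kB subunits, feedback regulators and targets split evenly, with 4 of 27 above and 4 below (14.8% each, against 15% and 19.5% of all genes). None was past 1.5-fold, and the median difference of 0.07 was -0.04 against the controls alone. ZC3H12A, which encodes the ribonuclease regnase-1, was at 86.2 CPM in siRIPK2_2 against 34.8 in WT, 67.8 in siNC and 36.05, 73.9 and 49.01 in the other siRIPK2 libraries. TNIP2, whose product restrains NF-kB, was at 25.8 CPM against 43.4 (WT), 43.1 (siNC) and 41.9, 55.9 and 38.1. The first was highest and the second lowest in siRIPK2_2. SQSTM1, the autophagy receptor p62, was at 1420.0 CPM in siRIPK2_2 against 878 in WT, 1171 in siNC and 1032, 832 and 1179 in the other siRIPK2 libraries, with exons shared with MGAT4B and MRNIP.

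Only 9 of 35 chemokine, cytokine and prostaglandin genes reached 5 CPM. Of these, 2 were above the range and 2 below (22.2% each, against 15% and 19.5% of all genes). CXCL8, which encodes the neutrophil chemokine IL-8, was at 50.8 CPM in siRIPK2_2 against 14.5 in WT, 61.8 in siNC and 15.6, 14.2 and 25.2 in the other siRIPK2 libraries. It was inside the range, since siNC exceeded siRIPK2_2, while the 4 remaining libraries lay well under both. LIF, a cytokine of the IL-6 family, was at 38.8 CPM against 13.3 (WT), 36.3 (siNC) and 35.2, 14.8 and 13.5, close to siNC and siRIPK2_1. CSF1, the macrophage growth factor, was at 373 CPM in siRIPK2_2 against 417 in WT, 761 in siNC and 477, 482 and 776 in the other siRIPK2 libraries and was lowest in siRIPK2_2. LIF and CSF1 thus lay at opposite ends. IL15, a cytokine of lymphocytes, was at 6.93 CPM against 5.22 (WT), 4.64 (siNC) and 6.07, 4.95 and 5.06. The chemokine gene CXCL12 was at 3.05 CPM against 3.52 (WT), 7.54 (siNC) and 6.45, 4.51 and 5.28. The margins of LIF, IL15 and CXCL12 to the nearest library were within counting error.

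Of 26 cytokine receptor and complement genes, 6 were above and 2 below, with a median difference of 0.06 (23.1% and 7.69%, against 15% and 19.5% of all genes). IL6R, the IL-6 receptor gene, was at 55.5 CPM in siRIPK2_2 against 13.1 in WT, 15.01 in siNC and 30.5, 23.1 and 8.14 in the other siRIPK2 libraries. It stood 1.82-fold above siRIPK2_1, the nearest library, and 3.70 times the median of the other 5, and siRIPK2_4 was lowest. IL1R1, the receptor of IL-1, was at 47.2 CPM against 28.6 (WT), 27.6 (siNC) and 27.02, 37.3 and 28.5. CFB, complement factor B, which overlaps C2, was at 33.6 CPM against 25.9 (WT), 25.2 (siNC) and 18.96, 20.9 and 23.7. In both, siRIPK2_2 was the highest library. IL13RA1, a receptor chain for IL-13, was at 47.8 CPM in siRIPK2_2 against 68.9 in WT, 74.4 in siNC and 71.2, 63.4 and 59.5 in the other siRIPK2 libraries and lay below the range.

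Interferon-stimulated genes were above the range in 13 of 33 cases (39.4%) and below in 3 (9.09%), against 15% and 19.5% of all genes. The median difference was 0.25. In 7 of the 13 the counting intervals of siRIPK2_2 and the nearest library did not touch. The upstream sequences of IFIT3 and IFIT1 are shown because this family is known for interferon-stimulated response elements, searched here on either strand by a core of GAAA, any 2 bases and GAAA (capitals). These are the 2 members above the range with the largest gaps whose exon-free stretch of 110 bases holds the core, and both lie on the plus strand of GRCh38 (RefSeq), at chr10:89327784-89327893 for IFIT3 and chr10:89392436-89392545 for IFIT1.
IFIT3: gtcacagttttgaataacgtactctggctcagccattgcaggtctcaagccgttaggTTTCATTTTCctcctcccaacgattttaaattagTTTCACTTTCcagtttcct
IFIT1: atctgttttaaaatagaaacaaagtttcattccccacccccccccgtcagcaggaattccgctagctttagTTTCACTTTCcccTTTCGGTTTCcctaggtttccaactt
The core was in 15 of 26 matched windows of the list (57.7%), against 3.65% of all windows. Among windows of genes considered the share was 2.82%. Of the 248 genes considered that hold the core, these 15 included, 39 (15.7%) were above the range and 42 (16.9%) below. The shares over all 8788 genes with a window were 15% and 19.4%. Holders of the core were thus above the range about as often as other genes. RSAD2, the antiviral enzyme viperin, was at 11.7 CPM in siRIPK2_2 against 3.8 in WT, 6.42 in siNC and 3.68, 4.82 and 6.57 in the other siRIPK2 libraries. It lay 1.78-fold above the nearest library and its exons overlap CMPK2. OAS1, a sensor of double-stranded RNA, was at 35.4 CPM against 21.9 (WT), 25.2 (siNC) and 13.3, 27.4 and 16.2. IFIT2, which binds foreign RNA and overlaps LIPA, was at 15.97 CPM in siRIPK2_2 against 7.05 in WT, 10.3 in siNC and 12.7, 8.93 and 9.16 in the other siRIPK2 libraries. In these 3 genes siRIPK2_2 stood clear of the rest. Its relative IFIT3 was at 23.6 CPM against 13.5 (WT), 20.2 (siNC) and 18.96, 12.8 and 17.7. IFIT1 was at 8.53 CPM against 8.46 (WT), 5.51 (siNC) and 5.39, 4.04 and 7.07. In IFIT1 the margin over WT was within counting error, and in all of these genes siRIPK2_2 was highest. The genes IFI44, IRF7 and OAS3, named here after their values were seen, were the 3 members below the range. IFI44 was at 49.5 CPM in siRIPK2_2 against 95.4 in WT, 51.7 in siNC and 64.1, 76.2 and 94.8 in the other siRIPK2 libraries. IRF7, a transcription factor of the interferon genes, was at 8.73 CPM against 12.4 (WT), 11.5 (siNC) and 8.97, 14.3 and 9.21. OAS3, a relative of OAS1, was at 140.3 CPM against 143 (WT), 159 (siNC) and 176, 155 and 147. All 3 were within counting error of the nearest library. With CPM from total counts 15 members were above and none below, against 20.81% and 14.58% of all genes.

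Genes of the integrated stress response lay above the range in 16 of 37 cases (43.2%), against 15% of all genes, and below in 2, with a median difference of 0.27. In 13 of the 16 the counting intervals did not touch. TRIB3 (chromosome 20, 362835 to 397559, plus strand, GRCh38), a pseudokinase induced by ATF4, was at 447 CPM in siRIPK2_2 against 214 in WT, 251 in siNC and 108, 274 and 236 in the other siRIPK2 libraries, 1.63-fold above siRIPK2_3. GDF15, a stress cytokine, was at 27.2 CPM against 14.7 (WT), 15.1 (siNC) and 10.4, 10.4 and 18.5. ASNS, asparagine synthetase, was at 80.4 CPM in siRIPK2_2 against 56.3 in WT, 56.7 in siNC and 34.1, 52.1 and 52.1 in the other siRIPK2 libraries. In these 3 genes siRIPK2_1 was the lowest library. CTH, which makes cysteine from cystathionine, was at 18.96 CPM against 13.1 (WT), 10.3 (siNC) and 6.3, 9.42 and 10.9. ALDH1L2, a mitochondrial folate enzyme that overlaps NOPCHAP1, was at 46.8 CPM against 35.2 (WT), 29.1 (siNC) and 17.6, 14.9 and 28.4.

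All 5 genes were highest in siRIPK2_2, and siRIPK2_1 or siRIPK2_3 was lowest. On this list siRIPK2_1 lay below every other library in 19 of 37 genes, against 21.9% of all genes considered. The knockdowns thus again stood on both sides of WT and siNC. Against the controls alone 25 of 37 genes were higher in siRIPK2_2, and against the other knockdowns 18. Of all genes considered, 31.47% were above both controls and 21.98% above the other knockdowns. The ATF4 composite motif TGATGCAA was in 4 of 32 windows matched (12.5%), against 0.923% of all and 0.478% of those of genes considered. No stretch passed the conditions for showing it.

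**Figure D5:**
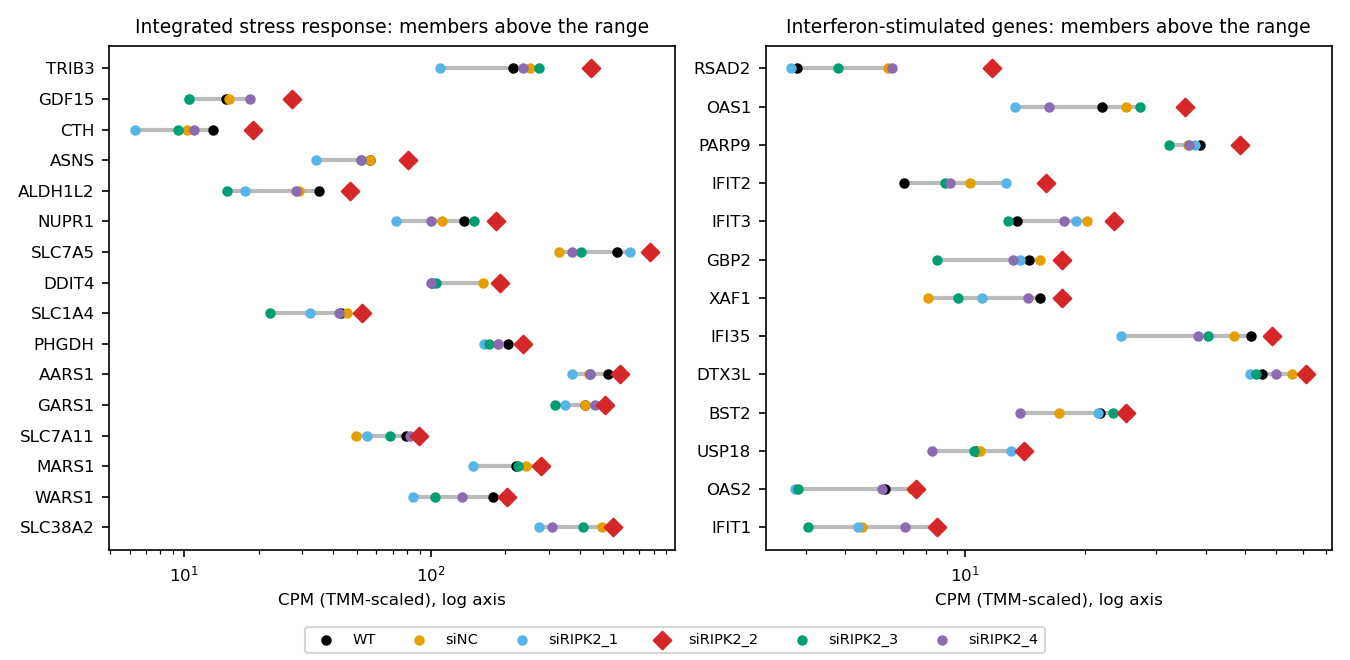
Level in TMM-scaled CPM on a log axis of the 16 integrated stress response genes (left) and 13 interferon-stimulated genes (right) that lay above the range of the other 5 libraries in siRIPK2_2. The red diamond is siRIPK2_2, circles are the other libraries and grey lines their range, and the diamonds at the top stand further from the line than those at the bottom.

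The unfolded protein response and folding genes of the endoplasmic reticulum were above the range in 7 of 22 cases (31.8%) and below in 1 (4.55%). The shares over all genes were 15% and 19.5%, and the median difference of the list was 0.23. SYVN1, a ubiquitin ligase of the endoplasmic reticulum that overlaps FAU and MRPL49, was at 169.7 CPM in siRIPK2_2 against 95.96 in WT, 125 in siNC and 112, 83.8 and 99.3 in the other siRIPK2 libraries. ERN1, the sensor IRE1, was at 13.4 CPM against 10.8 (WT), 10.2 (siNC) and 6.68, 6.93 and 8.61. EDEM1, which directs misfolded glycoproteins to degradation, was at 167 CPM against 147 (WT), 144 (siNC) and 94.02, 52.2 and 61.2. WT was close to siRIPK2_2 in EDEM1, and the list median of WT (0.33) was above that of siRIPK2_2 (0.30), so the list as a whole did not stand outside the range. Of 17 heat shock genes 4 were above (23.5%) and 5 below (29.4%), both shares higher than those of all genes. CRYAB, a small heat shock protein whose exons overlap HSPB2, was at 26.03 CPM in siRIPK2_2 against 16.8 in WT, 11.7 in siNC and 15.1, 15.2 and 8.97 in the other siRIPK2 libraries. The mitochondrial chaperonin gene HSPD1, which overlaps HSPE1, was at 264 CPM against 409 (WT), 321 (siNC) and 509, 640.3 and 585.

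Ribosomal protein genes were on the low side, with 17 of 46 (37%) below the range, against 19.5% of all genes, and none above. The median difference was -0.30, and all 46 were under the median of the others. In siRIPK2_1 the list was lower still, with a median of the centred values of -0.28 against -0.24 in siRIPK2_2. RPL12 was at 412 CPM in siRIPK2_2 against 565 in WT, 650.4 in siNC and 547, 789 and 578 in the other siRIPK2 libraries. RPS4X was at 497 CPM against 567 (WT), 634 (siNC) and 582, 822 and 640.5. Many ribosomal protein genes have near-identical processed copies that can take part of the reads. Of 13 mitochondrially encoded transcripts 7 (53.8%) were below the range, again against 19.5% of all genes, and none above. Among the 7 was MT-ND2, at 1309.6 CPM against 1626 (WT), 1871 (siNC) and 1980.2, 1714 and 1607.

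Targets of YAP and TEAD, the effectors of the Hippo pathway, were below the range in 10 of 23 cases (43.5%) and above in 2 (8.7%). The shares over all genes were 19.5% and 15%, and the median difference of the list was -0.43. WWTR1, which encodes the coactivator TAZ, was at 80.1 CPM in siRIPK2_2 against 131 in WT, 159 in siNC and 133, 121 and 141 in the other siRIPK2 libraries. CCN2, connective tissue growth factor, was at 109 CPM against 149 (WT), 175 (siNC) and 157, 166 and 159.9. CCN1 was at 272 CPM against 364 (WT), 436 (siNC) and 377, 698 and 530.2. All 3 were lowest in siRIPK2_2. Immediate early genes were below in 7 of 17 cases (41.2%) and above in 3 (17.6%), against the same 19.5% and 15%. SRF, the serum response factor, was at 25.9 CPM in siRIPK2_2 against 65.6 in WT, 75.9 in siNC and 44.2, 98.7 and 45.1 in the other siRIPK2 libraries. ATF3 was at 23.4 CPM against 15.3 (WT), 16.3 (siNC) and 8.17, 18.9 and 16.1. The median of that list, -0.26, was 0.11 when genes of at least 1 CPM were taken.

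Of feedback inhibitors of ERK signalling, 4 of 16 were below the range and 1 above, and the 68.8% inside it were near the 65.5% of all genes considered. SPRED1, which restrains RAS, was at 21.02 CPM in siRIPK2_2 against 56.4 in WT, 59.2 in siNC and 67.2, 58.96 and 60.2 in the other siRIPK2 libraries, 2.68-fold under the lowest of 5 tightly placed libraries. Its relative SPRED2 was the member above, at 139 CPM against 93.4 (WT), 121 (siNC) and 120.5, 123 and 98.8.

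Among apoptosis regulators, 5 of 28 were above (17.9%) and 7 below (25%), near the shares over all genes. BAK1, a pore-forming protein of the outer mitochondrial membrane, was at 9.74 CPM in siRIPK2_2 against 30.7 in WT, 51.5 in siNC and 35.4, 67.5 and 53.8 in the other siRIPK2 libraries, 3.15-fold under the nearest library, WT. BCL2, its inhibitory relative, was at 8.94 CPM against 20.6 (WT), 18.6 (siNC) and 19.4, 15.8 and 16.4. MCL1 was at 113 CPM against 189 (WT), 253 (siNC) and 263, 215 and 146. BCL2L2, which shares exons with its read-through gene and with PPP1R3E, was at 83.4 CPM in siRIPK2_2 against 65.4 in WT, 57.2 in siNC and 46.5, 7.04 and 62.2 in the other siRIPK2 libraries and was the only one of these 4 above the range. Both pore-forming and protective members were therefore among the lower genes.

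Cholesterol synthesis genes were below in 6 of 22 cases (27.3%, against 19.5% of all genes) and above in 1, with a median difference of -0.21. SQLE, squalene epoxidase, was at 8.34 CPM in siRIPK2_2 against 17.1 in WT, 20.5 in siNC and 24.95, 18.1 and 17.5 in the other siRIPK2 libraries, 2.06-fold under WT. MSMO1, a sterol methyl oxidase, was at 16.6 CPM against 34.8 (WT), 47.3 (siNC) and 38.5, 26.3 and 28.6. INSIG1, the sterol-regulated retention protein, was at 16.2 CPM in siRIPK2_2 against 60.7 in WT, 41.2 in siNC and 42.2, 20.9 and 26.5 in the other siRIPK2 libraries, with siRIPK2_3 second lowest. Against the controls alone 19 of 22 genes of the list were lower in siRIPK2_2, as were 37.65% of all genes. Hypoxia and glycolysis genes were inside the range in 29 of 33 cases (87.9%), against 65.5% of all genes. Lysosome and autophagy genes, with 24 of 33 inside (72.7%), and NRF2 and glutathione genes, with 15 of 21 (71.4%), were near the share over all genes. The lysosome list had 7 members above (21.2%) and 2 below (6.06%), against 15% and 19.5% of all genes. The NRF2 list had 3 members (14.3%) on each side.

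Of collagens and matrix glycoproteins 28 of 33 (84.8%) were inside the range, against 65.5% of all genes, and the 13 of 18 proteases and inhibitors inside (72.2%) were near that share. TIMP3, an inhibitor of metalloproteinases, was at 1959 CPM in siRIPK2_2 against 1040.3 in WT, 1173 in siNC and 673, 676 and 868 in the other siRIPK2 libraries, 1.67-fold above siNC. SERPINB2, the plasminogen activator inhibitor PAI-2, was at 10.1 CPM against 5.27 (WT), 5.95 (siNC) and 2.6, 3.18 and 3.14, with an overlap with SERPINB10. In both genes WT and siNC lay between siRIPK2_2 and the other knockdowns. On the low side, the metalloproteinase gene ADAM9 was at 199 CPM against 345 (WT), 352 (siNC) and 449, 492 and 431. ADAMTS1, which encodes a metalloproteinase that cleaves matrix proteoglycans, was at 133 CPM against 227 (WT), 289.9 (siNC) and 205, 359 and 203. Both were lower in siRIPK2_2 than in any other library. VIM, the intermediate filament gene vimentin, was at 3803 CPM in siRIPK2_2 against 6476 in WT, 7568 in siNC and 5707, 5988 and 7191 in the other siRIPK2 libraries, lowest in siRIPK2_2.

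Of the genes with the widest gaps above the range, several sit in loci whose genes share exons, where reads cannot be assigned to 1 gene with certainty. PCDHGC4, PCDHGA11 and PCDHGB5 belong to the gamma protocadherin cluster, whose variable first exons are spliced to shared last exons and encode cell adhesion proteins. PCDHGC4 was at 40.1 CPM in siRIPK2_2 against 0.943 in WT, 0.872 in siNC and 1.84, 0.4 and 0.523 in the other siRIPK2 libraries. PCDHGA11 was at 47.7 CPM against 4.52 (WT), 0.374 (siNC) and 4.92, 0.4 and 0.303. PCDHGB5 was at 32.99 CPM against 0.416 (WT), 0.623 (siNC) and 4.36, 0.555 and 0.605. Each was low in all 5 other libraries. The 22 genes of the cluster summed to 188 CPM in WT, 263 in siNC, 236 in siRIPK2_1, 347 in siRIPK2_2, 246 in siRIPK2_3 and 285 in siRIPK2_4. The sum in siRIPK2_2 was 1.22 times the highest other library, against 21.8 times for PCDHGC4 alone. The read-through gene ZNF8-ERVK3-1 was at 23.9 CPM in siRIPK2_2 against 3.52 in WT, 2.93 in siNC and 4.03, 2.35 and 0.88 in the other siRIPK2 libraries. SLCO1B3-SLCO1B7, a read-through of transporter genes, was at 37.1 CPM against 9.49 (WT), 0.218 (siNC) and 0.252, 0 and 0.138. Summed with the 2 named genes each spans, siRIPK2_2 was 1.02 and 1.11 times the highest other library. The level of 0 in siRIPK2_3 allows up to 0.0667 CPM, the worth of 3 counts there.

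The same holds on the low side. COX20, an assembly factor of cytochrome oxidase, was at 5.21 CPM in siRIPK2_2 against 34.5 in WT, 49.6 in siNC and 46.6, 51.9 and 22.7 in the other siRIPK2 libraries, and shares exons with HNRNPU, an abundant RNA-binding protein gene. HNRNPU, named for that reason, was at 169 CPM against 365 (WT), 427 (siNC) and 537, 404 and 457. The sum of the pair was 399 CPM in WT, 477 in siNC, 583 in siRIPK2_1, 174 in siRIPK2_2, 456 in siRIPK2_3 and 479.9 in siRIPK2_4, so the locus as a whole was 2.29-fold under the lowest other library. TIMM17B, a mitochondrial import subunit, was at 5.38 CPM in siRIPK2_2 against 21.2 in WT, 30.2 in siNC and 25.1, 40.8 and 26.4 in the other siRIPK2 libraries, but summed with its neighbour PQBP1 it was 1.26-fold under. PEX10, of the peroxisome, was at 10.04 CPM against 40.4 (WT), 40.4 (siNC) and 33.7, 44.1 and 43.5, and summed with RER1 siRIPK2_2 lay inside the range, at 155.8 CPM. Of the 61 genes past 1.5-fold above, 16 (26.2%) share exons with another listed gene, and of the 205 below, 48 (23.4%). No overlap was present in 45 of the 61, in 157 of the 205 and in 7330 of all 10673 genes considered. Shared exons were thus no more frequent past 1.5-fold than over all genes.

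Genes without such overlap among the widest gaps above included secretory, epidermal and signalling genes. KRT16 (chromosome 17, 41609778 to 41615899, minus strand, GRCh38), an epidermal keratin of stressed skin, was at 55.7 CPM in siRIPK2_2 against 15.8 in WT, 16.01 in siNC and 2.95, 7.78 and 4.65 in the other siRIPK2 libraries. It was 3.48-fold above siNC, the nearest library, and close paralogs and copies of this keratin can share reads with it. TGOLN2, a protein of the trans-Golgi network, was at 156 CPM against 38.7 (WT), 38.2 (siNC) and 52.9, 45.1 and 42.7, with the other 5 libraries close together. TMEM250, a membrane protein gene, was at 129 CPM in siRIPK2_2 against 22.3 in WT, 31.1 in siNC and 34.6, 32.4 and 48.1 in the other siRIPK2 libraries. No single library lay near siRIPK2_2 in either gene. DHRS9, a retinol dehydrogenase, was at 49.1 CPM against 18.95 (WT), 18.2 (siNC) and 11.7, 18.5 and 10.1. MN1, a transcriptional coregulator, was at 12.5 CPM against 4.27 (WT), 4.36 (siNC) and 3.98, 4.89 and 2.28. DSG3, a desmosomal cadherin of epidermis, was at 94.8 CPM in siRIPK2_2 against 45.8 in WT, 41.3 in siNC and 31.1, 35.4 and 9.65 in the other siRIPK2 libraries, and siRIPK2_4 was far under the rest.

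Other keratins and epithelial markers were mostly low or inside the range. Of 19 keratin genes 6 had a mean of at least 5 CPM, of which 1, KRT16, was above the range and 5 inside. The summed keratin level was 198 CPM in siRIPK2_2 and between 97.0 and 571 in the others. That list was highest in siRIPK2_1, mainly through KRT75, a hair follicle keratin, which was at 67.97 CPM against 103 (WT), 122 (siNC) and 467, 74.3 and 50.2. Of 20 epithelial markers 4 reached 5 CPM and 12 were under 1 CPM, and in no library was EPCAM above 0.17 CPM, CDH1 above 0.0667 or DSP above 0.0623. CLDN1, a tight junction claudin, was at 15.1 CPM in siRIPK2_2 against 7.91 in WT, 8.85 in siNC and 8.92, 5.44 and 8.83 in the other siRIPK2 libraries. LAMB3, a laminin chain of epithelial basement membrane, was at 123 CPM against 74.8 (WT), 80.4 (siNC) and 67.98, 72.5 and 42.4. Both were highest in siRIPK2_2, and the summed epithelial level was 190.3 CPM there against 86.0 to 146 in the others. The part of such cells in any result was not tested.

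PECAM1, an endothelial adhesion gene, was at 2.74 CPM in siRIPK2_2 against 1.53 in WT, 1.99 in siNC and 0.983, 0.667 and 0.825 in the other siRIPK2 libraries, highest in siRIPK2_2 but under the 5 CPM minimum. Of 16 endothelial markers 3 reached 5 CPM, FLT4 and TEK had no count in any library, and the summed level was 191 CPM in siRIPK2_2 against 223 to 323 in the others. ROBO4, a receptor of endothelium, was at 20.97 CPM against 10.4 (WT), 9.13 (siNC) and 10.9, 9.15 and 13.4. ENG, which gives most of the summed level, was at 146 CPM against 192 (WT), 198 (siNC) and 291, 239 and 203. Of the 3 considered, ROBO4 was thus above the range, ENG below it and TIE1 inside. Of 15 macrophage and microglia markers only CD68, a lysosomal gene, reached 5 CPM, and 5 had no count in any library.

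Other genes with wide gaps above included GCNT3, a mucin glycosyltransferase, at 19.4 CPM against 7.1 (WT), 6.95 (siNC) and 4.08, 6.75 and 8.99. MFAP4, a microfibril protein that overlaps MAPK7, was at 75.02 CPM against 36.2 (WT), 30.3 (siNC) and 32.7, 21.1 and 15.8. GPER1, a membrane receptor that responds to estrogen, was at 18.3 CPM against 8.8 (WT), 8.57 (siNC) and 4.79, 6.67 and 4.87. In these 3 genes no other library came within 2-fold of siRIPK2_2. IL31RA, a receptor of the cytokine IL-31, was at 14.3 CPM in siRIPK2_2 against 6.47 in WT, 4.24 in siNC and 6.07, 7.15 and 4.4 in the other siRIPK2 libraries. TTC3, a ubiquitin ligase, was at 126 CPM against 67.8 (WT), 54.7 (siNC) and 58.6, 57.2 and 45.7. LRRN4CL, a membrane protein gene, was at 66.1 CPM against 35.5 (WT), 29.3 (siNC) and 21.8, 23.7 and 18.1. In all 3 siRIPK2_2 stood alone above a group of 5. NUDT4, a phosphatase of inositol pyrophosphates that overlaps UBE2N, was at 48.1 CPM against 18.3 (WT), 22.7 (siNC) and 16.5, 23.3 and 23.1. NIPSNAP1, a mitochondrial protein gene that overlaps THOC5, was at 71.4 CPM against 28.7 (WT), 27.9 (siNC) and 34.3, 14.1 and 36.96. With their neighbours these loci were 1.02 and 1.07 times the highest other library.

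On the low side, UBE2Z, a ubiquitin-conjugating enzyme, was at 54.1 CPM in siRIPK2_2 against 193 in WT, 183 in siNC and 187, 173 and 158 in the other siRIPK2 libraries, 2.92-fold under 5 similar libraries. PDP2, a phosphatase that activates pyruvate dehydrogenase, was at 0.485 CPM against 15.3 (WT), 22.1 (siNC) and 4.21, 13.4 and 11.2, with siRIPK2_1 next lowest. TNFAIP8L3, a lipid transfer protein gene, was at 4.56 CPM in siRIPK2_2 against 18.2 in WT, 17.6 in siNC and 37.96, 14.7 and 21.04 in the other siRIPK2 libraries. In TNFAIP8L3 the other libraries were spread, with siRIPK2_1 on top. CABLES1, which links cyclin-dependent kinases to tyrosine kinases, was at 5.62 CPM against 27.1 (WT), 19.3 (siNC) and 44.9, 16.2 and 33.1. LGR4, a receptor for R-spondins, was at 8.14 CPM in siRIPK2_2 against 21.9 in WT, 26.4 in siNC and 41.1, 29.8 and 26.3 in the other siRIPK2 libraries. GJC1, a gap junction connexin, was at 15.9 CPM against 54.4 (WT), 52.5 (siNC) and 45.9, 41.1 and 51.6. In each of these genes siRIPK2_2 lay under all other libraries, while LBR, TNFAIP8L3, CABLES1 and LGR4 were highest in siRIPK2_1.

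Of the remaining genes of the lowest 20, ZNF445, a zinc finger gene for imprinting control, was at 15.2 CPM against 40.6 (WT), 40.1 (siNC) and 44.5, 40.1 and 40.7. Its other 5 libraries lay within a band of a few CPM, though it overlaps the pseudogene C3orf86P. TMEM128, a membrane protein gene, was at 3.66 CPM against 11.9 (WT), 13.3 (siNC) and 10.6, 11.9 and 12.2. SLC4A8, a bicarbonate transporter that overlaps GALNT6, was at 4.85 CPM against 14.7 (WT), 20.1 (siNC) and 17.4, 13.2 and 27.8. FERMT2, the integrin activator kindlin-2, was at 44.9 CPM against 129.8 (WT), 126 (siNC) and 111, 134 and 110.3. All 3 were lowest in siRIPK2_2, with WT among the other knockdowns. An identifier with no gene symbol, ENSG00000284292 on chromosome 7 (99325879 to 99394653, plus strand, GRCh38), had a wider gap below than any of them and is given here after its value was seen. It was at 2.52 CPM in siRIPK2_2 against 19.9 in WT, 21.9 in siNC and 17.6, 22.2 and 26.1 in the other siRIPK2 libraries, and its exons overlap ARPC1A, ARPC1B and PDAP1. All 20 genes named for the largest gaps in each direction stayed outside the range by at least 1.5-fold under every setting that kept them. They were chosen for wide gaps, which filters leave unchanged and fewer libraries can only keep or widen. That outcome was therefore largely fixed by the choice.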

How the data were processed

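RNA was measured by poly(A) RNA-seq in 6 libraries of U118 cells. The authors deposited raw counts per gene for each library in 1 table, and the tools named per the submitters' processing notes were bedtools, HISAT2, Trimmomatic and FastQC, with the build GRCh38. Tool versions, the annotation behind the counts and the use of strand were not stated in the labels, so reads of overlapping or antisense genes cannot be told apart. Of 20263 identifiers 19827 had a symbol, and exon overlaps (5320 identifiers) are from GENCODE 29.

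Counts were turned into CPM with TMM factors (edgeR 4.0.16, R 4.3.3), and genes with a mean of at least 5 CPM were kept. Gaps and differences are on log2(CPM + 1) and understate the change of low genes. Other steps used Python 3.11.15, numpy 2.4.6, pandas 2.3.3 and scipy 1.17.1, and were tested on simulated counts. No 2 libraries agreed within sampling noise: chi-square per degree of freedom ran from 77.1 to 223.6 over pairs. Counting intervals are exact Poisson, at 95%, and reads are not independent molecules.

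No test of siRIPK2_2 against the other libraries was run, and Dixon's ratio among the 4 knockdowns only marked values for the closing section. Names were given to the 20 genes with a symbol and the largest gap in each direction, RIPK2, the markers NUF2, KRT16 and PECAM1, up to 5 members with the largest gap in each of 32 lists, and the genes whose promoters are shown. Some items under this rule are not reported here. The members and lists were chosen with earlier results of these data known. Alternatives changed the scaling (total counts, or DESeq2 1.42.0 size factors), the minimum level, the pseudocount, the libraries compared, the 1.5-fold limit and the use of overlapping genes. The siRNA sequences were not used here.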

Additional observations from a re-analysis of the deposited data

Results flagged for a closer look

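Among the 4 siRIPK2 libraries, a value was marked where the gap from the highest or lowest library to its neighbour took more of their range than Dixon's 95% critical value allows. Chance alone marks about 1 in 20 groups. The named genes were chosen for the distance of siRIPK2_2 from the rest, so the 13 marks among 42 genes, all for siRIPK2_2, were largely fixed by that choice. They describe the values and are no test of them.

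The protocadherin genes PCDHGC4 (40.1 CPM), PCDHGA11 (47.7 CPM) and PCDHGB5 (33.0 CPM) and the read-through genes ZNF8-ERVK3-1 (23.9 CPM) and SLCO1B3-SLCO1B7 (37.1 CPM) were marked high in siRIPK2_2, and all 5 share exons with their neighbours. KRT16 (55.7 CPM), TGOLN2 (156 CPM), TMEM250 (129 CPM), GPER1 (18.3 CPM), TTC3 (126 CPM) and LRRN4CL (66.1 CPM) were also marked high there. ZNF445 (15.2 CPM) was marked low. PECAM1 was marked high at 2.74 CPM, from 113 counts in siRIPK2_2 against 30 to 39 in the other knockdowns, while siNC had 64 counts and WT 55.

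Of 32 list levels (the median over members of log2(CPM + 1) centred on the mean of the 6 libraries), 2 were marked. The lysosome and autophagy list stood at 0.128 in siRIPK2_2, higher than the other knockdowns but next to WT and siNC. The keratin list stood at -1.09 in siRIPK2_4. Of 3 library measures, the mitochondrially encoded share of counts was marked, at 4.71% in siRIPK2_1.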

How the results depend on the processing

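No paired analysis was possible because WT and siNC carry no replicate number that the knockdowns share as a pair, and the results come from no test. The counts of genes outside the range were 1050 above with a minimum of 20 CPM, 3065 above with no minimum, and 3359 above and 4018 below against both controls alone, where 2 libraries make a narrower range. The 61 genes past 1.5-fold above became 93 with total counts, 107 with a minimum of 1 CPM, 25 with 20 CPM, 125 with none, 36 with a pseudocount of 5, 76 to 106 with 1 of the other libraries left out, 219 against the other knockdowns alone, 205 against the controls alone and 14 at 2-fold. The 205 below became 440 against the other knockdowns, 501 against the controls and 48 at 2-fold. Among the lists of the cell cycle, of inflammation and of the integrated stress response, medians that moved by more than the spread of the other knockdowns were those of the kinetochore list (-0.84 against the knockdowns alone), the G1 list (-0.18 with total counts, -0.16 with a minimum of 20 CPM), chemokines (1.34 with 20 CPM, 0.10 with no minimum, 0.23 to 0.40 with 1 library left out, 0.15 against the controls), NF-kB genes (0.0060 to 0.19 with 1 library left out, -0.0401 against the controls), NOD signalling (-0.0154 without siRIPK2_1 and -0.0018 without siRIPK2_4, up to 0.0947 without siNC, -0.0026 against the knockdowns) and interferon-stimulated genes (0.33 with total counts, 0.20 with a pseudocount of 5, and 0.24 to 0.33 with 1 library left out). In 13 other lists 47 medians moved by more than that spread, among them YAP and TEAD targets (-0.56 to -0.27), lysosome and autophagy (-0.0036 to 0.19) and immediate early genes (-0.40 to 0.11). The causes were not tested. The 4 cell cycle medians stayed negative over all 15 alternatives: -0.84 to -0.48 for the kinetochore, -1.10 to -0.77 for kinases and cyclins, -0.90 to -0.49 for spindle motors and -0.58 to -0.45 for DNA replication. The integrated stress response (0.25 to 0.38) and interferon-stimulated genes (0.20 to 0.33) stayed positive. With a minimum of 20 CPM, 10 of the 20 genes named above and 16 of the 20 below were left, and this filter does not change their gaps. Depth limits genes of low count, for which 3 counts are worth 0.0667 to 0.0934 CPM.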
